A study of Mus musculus with 17 samples.

Results

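Basal cells of the P4 gate were compared with macrophages of the same tissue, the mammary gland of virgin mice, in the control animals of the K8-Cre line. The P4 gate is the stem cell enriched basal fraction, sorted as Lin-CD24+CD29high, and the macrophages were sorted on F4/80 and CD11b. The comparison holds 3 of the 17 libraries of the series: 1 P4 library and 2 macrophage libraries. All 3 carry the genotype label K8Cre+ and no floxed allele, and their titles call the mice wild type. K8-Cre is a recombinase driven by the keratin 8 promoter, which is active in luminal epithelial cells. The labels give no strain and no age and do not say whether the macrophage libraries came from separate mice, so their spread may be technical. The study deals with CXCL12-CXCR4 signalling between epithelium and macrophages, and the comparison asks which genes, ligands and receptors separate the sorted populations.

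The deposited tables give P4 values as FPKM, reads scaled to transcript length and library size, and macrophage values as log2 of CPM, reads scaled to library size alone. Of 13982 protein-coding genes in the macrophage table, 12343 carried the same symbol in the P4 table. Because the units differ, each gene was given its percentile rank within each library over these 12343 genes, from 0 for the lowest to 100 for the highest. A gene was called higher in P4 when its P4 percentile was at least 30 points above both macrophage libraries, and higher in macrophages when it was at least 30 points below both. Percentiles end at 100, so a gene less than 30 points from the top in P4 cannot be called higher in macrophages. Likewise, a gene that near the top in either macrophage library cannot be called higher in P4. An absent call is therefore not a finding of equal level. With 1 P4 library no test is possible, and no p-value is given. Cell type cannot be told apart from table, unit and processing. In sorted bulk samples, fewer cells of a type and less RNA per cell also cannot be told apart.

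The mammary duct is a bilayer. Inner luminal cells carry keratins 8 and 18, while outer basal or myoepithelial cells carry keratins 5 and 14 and the contractile apparatus of smooth muscle, and rest on a basement membrane through integrins and hemidesmosomes. Macrophages lie around and within the ducts, depend on the CSF1 receptor, engulf debris and present antigen. Secreted ligands made by one population and read by receptors of the other are the means by which epithelium and macrophages can signal to each other.

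Macrophage library 1 stood apart in depth. It held an estimated 8.60 M reads, where M stands for mega, and listed 24.1% of the joined genes at 0, against 37.2 M reads and 3.19% in library 2. The P4 library listed 8.30% at 0, and its depth is unknown. A value of 0 stood at percentile 12.1 in macrophage library 1, 1.596 in library 2 and 4.15 in P4. The macrophage libraries differed from each other by at least 30 points for 1316 genes, 10.7% of the joined set, while those of the knockout line differed so for 3.02%. The P4 libraries of the control and knockout glands differed so for 250 genes, 2.03%.

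Across the joined genes, 748 were called higher in P4 (6.06%) and 908 higher in macrophages (7.36%). The median difference of all genes, P4 percentile minus the mean of both macrophage percentiles, was 0.365 points. Without macrophage library 1 the counts were 1198 and 1273, and without library 2 they were 1598 and 1579. Ranking over every entry of each table, in place of the joined genes, turned the split to 1357 against 359. As further alternatives, P4 was set against the 2 libraries of LysM-Cre control macrophages, sorted the same way from LysmCre+ mice whose recombinase acts in myeloid cells. Macrophage CPM was also divided by exon length. Log2 ratios past 8-fold replaced ranks in another run, taken on length-divided macrophage values with each library scaled to the same total. The log2 ratio and exon-length runs are therefore not independent of each other. The largest gaps to the nearest macrophage library on the P4 side were those of Clca2, Rps27 and Mif, and on the macrophage side those of Gabarap, Slc15a3 and Wdfy4.

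**Figure D1:**
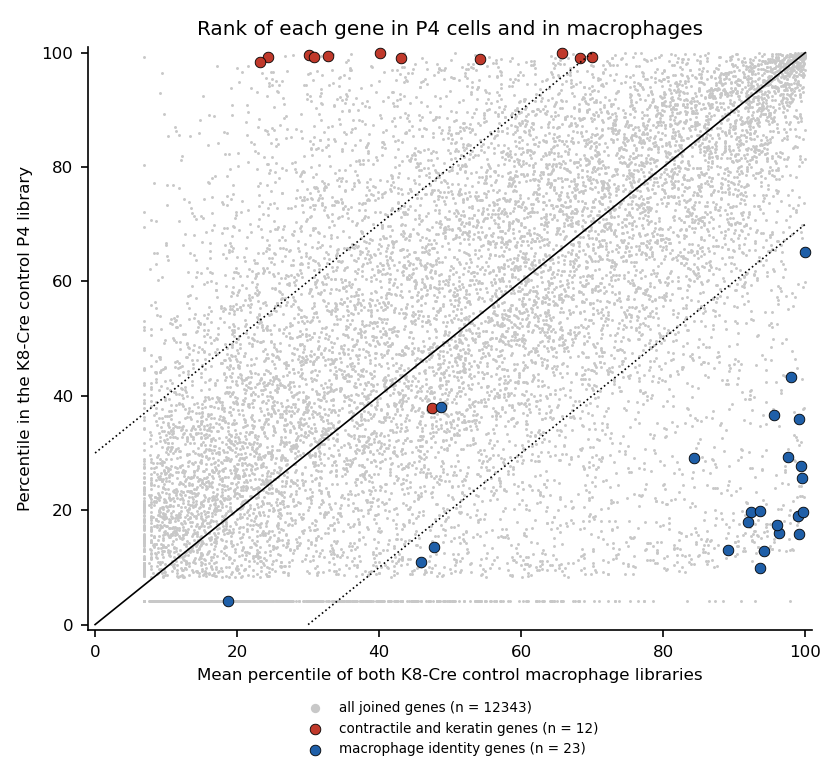
Percentile of each of 12343 joined genes in the K8-Cre control P4 library (vertical axis) against its mean percentile in both macrophage libraries (horizontal axis); the solid line marks equal ranks and the dotted lines 30 points from the macrophage mean. Contractile and keratin genes (red, 12 genes) lie at the top except Des, and macrophage identity genes (blue, 23 genes) lie below the lower dotted line except Mertk and Trem2.

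The sort markers gave a mixed picture at the RNA level. Itgam, which encodes CD11b, had 0.306 FPKM in P4 and 298 and 252 CPM in the macrophage libraries, a difference of -80.3 points. Adgre1, the gene of F4/80, was joined only through its older symbol Emr1. It had 0.409 FPKM in P4 against 470 and 702 CPM, a difference of -81.1 points. Both gating antigens of the macrophages thus ranked far lower in P4 than in either macrophage library. Those of the P4 gate did not separate the populations. Itgb1, which encodes CD29, stood at percentile 99.5 in P4 and 98.9 in both macrophage libraries. Cd24a, the gene of CD24, stood at 98.4 in P4 and at 93.0 and 90.0 in macrophages.

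Contractile and basal keratin genes were the group with the largest rank difference toward P4. Of 18 listed genes, 12 were joined, 8 were called higher in P4 and none higher in macrophages. The median difference was 57.9 points. In the P4 library 11 of the 12 stood above percentile 98. Krt14, the classic basal keratin, had 561 FPKM in P4 and 0.930 and 2.52 CPM in macrophages, at percentiles 99.7, 42.4 and 17.9. Its partner Krt5 had 436 FPKM against 1.24 and 3.38 CPM. Both macrophage libraries thus held traces of either keratin, far below the P4 rank. Krt15, another basal keratin, differed by 74.9 points. Cnn1, the actin-binding protein calponin, gave the largest difference of the group at 75.1 points, with 195 FPKM in P4 and 0.581 and 0.188 CPM in macrophages. Tagln (transgelin) had 1096.5 FPKM and a difference of 59.8 points. Oxtr, the oxytocin receptor through which myoepithelium contracts at milk let-down, had 321 FPKM and a difference of 68.5 points.

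The 4 members that were not called included the most abundant one. Acta2, smooth muscle actin, had 2950.5 FPKM in P4, but 26.3 and 41.9 CPM placed it at percentiles 60.6 and 70.8 in macrophages, 29.15 points short of P4. Mylk and Tpm1 lay 16.4 and 28.0 points above the nearest macrophage library. Des, the muscle intermediate filament desmin, had 3.29 FPKM in P4 and 0.930 and 17.9 CPM in macrophages, a difference of -9.57 points. A further 6 listed genes were not in the macrophage table, so no rank was compared. In P4 the highest of these were Krt17 at 568.7 FPKM, Myl9 at 184.6 FPKM and Actg2 at 142.7 FPKM.

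**Figure D2:**
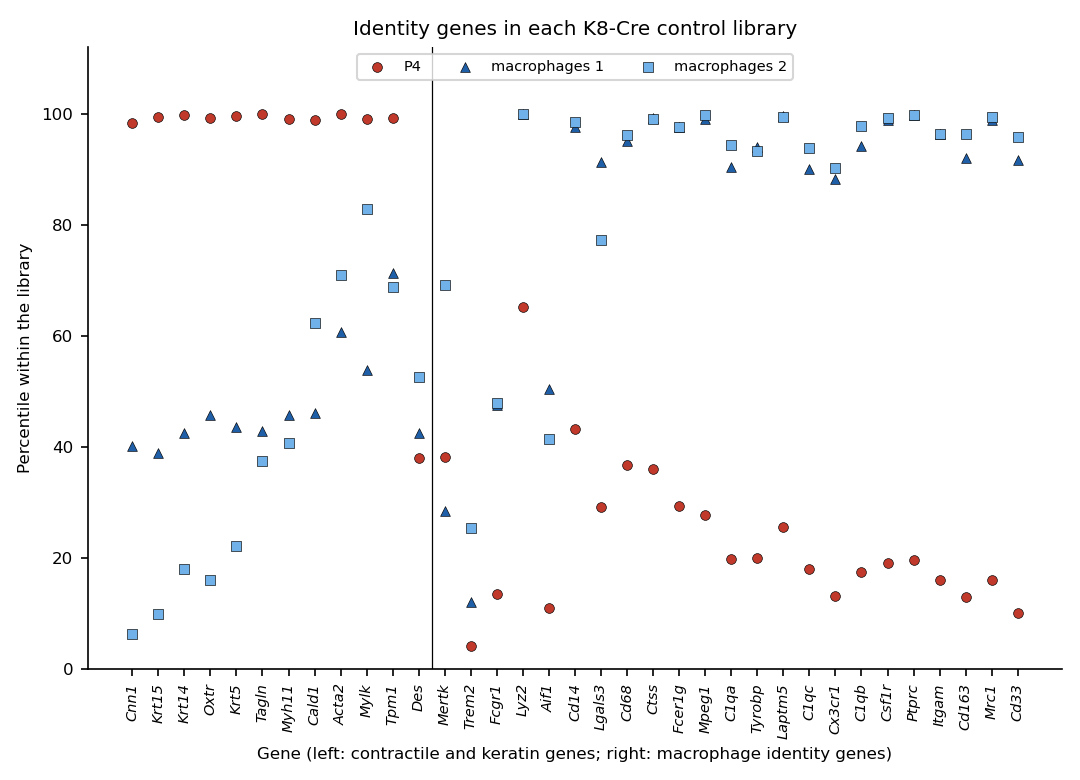
Percentile of each identity gene in the P4 library (red circles) and in macrophage libraries 1 (dark triangles) and 2 (light squares), with the 12 contractile and keratin genes on the left and the 23 macrophage identity genes on the right. P4 points lie above both macrophage points for 11 genes on the left and below both for 22 on the right, Mertk lying between them.

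Genes that anchor basal cells to the basement membrane also ranked higher in P4. Of 20 hemidesmosome, integrin and laminin genes, 9 were called higher in P4, none higher in macrophages, and the median difference was 37.9 points. Itga3, the laminin-binding integrin alpha 3, had 76.2 FPKM in P4 and 0.233 and 0.806 CPM in macrophages, a difference of 71.9 points. Lama3 and Lamb3, laminin chains of the basement membrane, differed by 61.3 and 63.6 points. Col17a1 and Itgb4, transmembrane parts of the hemidesmosome, differed by 63.0 and 56.3 points. Itga6, often used as a basal surface marker, was not called: 287 FPKM in P4 stood beside 4.38 and 76.8 CPM, which placed the macrophage libraries at percentiles 48.6 and 83.0. With macrophage values divided by exon length, 14 of the 20 were called, beside 6.01% of all genes by that rule.

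Epithelial junction genes followed, with 7 of 19 called higher in P4 and a median difference of 33.0 points. Pkp1, a desmosome plaque protein, had 107 FPKM in P4 against 0.814 and 3.38 CPM and differed by 64.1 points. Perp and Dsp, also of desmosomes, differed by 63.3 and 54.1 points, and Cdh1 (E-cadherin) by 50.4 points with 141 FPKM in P4. Epcam, the pan-epithelial adhesion molecule, passed narrowly. It had 147 FPKM in P4 and 39.6 and 27.8 CPM in macrophages, a gap of 30.2 points. Per exon length it differed by 15.8 points and was not called, nor was it by log2 ratio. The median of the junction list fell to 19.9 points when macrophage values were divided by exon length, with 6 called.

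Among epithelial transcription factors, 9 of 17 were called higher in P4 and 1 higher in macrophages, with a median of 40.7 points. Trp63, the p63 regulator of basal identity, had 119 FPKM in P4 and 0.465 and 1.05 CPM in macrophages, a difference of 71.8 points. Id4, an inhibitor of basic helix-loop-helix factors, differed by 70.5 points, Irx4 by 66.7 and Snai2, a zinc finger factor of basal cells, by 66.3. Tfap2a and Grhl2, general epithelial factors, differed by 61.8 and 50.9 points, but Grhl2 was not called against the LysM-Cre control macrophages, at 43.7 points. The exception was Ehf, an ETS factor of epithelia. It had 2.68 FPKM in P4 and 155 and 58.0 CPM in macrophages and was called higher in macrophages by 49.4 points, though not by log2 ratio.

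Genes linked to mammary stem cells were split. Of 19 joined, 7 were called higher in P4 and 1 higher in macrophages, with a median of 20.7 points. The 7 were Trp63, Id4, Snai2, Tbx3, Lgr6, Lgr5 and Dll1. Lgr5 and Lgr6, receptors for R-spondins, had 57.0 and 80.9 FPKM in P4 and under 3 CPM in either macrophage library, with differences of 61.1 and 64.6 points. Dll1, a Notch ligand, had 156 FPKM against 2.79 and 6.07 CPM, a difference of 58.7 points. Against the LysM-Cre control macrophages Dll1 differed by 32.0 points and was not called, and by log2 ratio Tbx3 was not called. Inpp5d, the phosphatase SHIP1, went the other way, with 0.107 FPKM in P4 and 133 and 197 CPM in macrophages, a difference of -78.6 points. Sox9 missed the call by little, at a gap of 29.9 points.

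Luminal genes did not separate the populations as a group. Of 20 joined, 3 were called higher in P4, 2 higher in macrophages and 15 in neither direction, and the median was 8.80 points. Over all joined genes, 6.06% were called higher in P4 and 7.36% higher in macrophages. Krt8, a luminal keratin, had 72.1 FPKM in P4 and 1.31 and 5.01 CPM in macrophages, a difference of 57.7 points. Lcn2 differed by 46.1 points, and by 37.3 per exon length and 43.6 against the LysM-Cre control macrophages, and was called in neither alternative. Areg differed by 44.8 points, and by 33.0 and 8.89 in those alternatives, and was called in neither nor by log2 ratio. Kit, a receptor tyrosine kinase of luminal progenitors, was called higher in macrophages by 49.7 points in size, with 2.99 FPKM in P4 and 143 and 76.6 CPM, though not by log2 ratio. Ltf, lactoferrin, differed by -43.3 points, but by -17.9 against the LysM-Cre control macrophages and -22.5 in the Cxcl12 knockout glands. It was called in neither of these nor by log2 ratio. The milk protein genes Csn2, Wap and Lalba were not in the macrophage table and were listed at 0 FPKM in P4.

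Macrophage identity genes gave the mirror image. Of 23 joined, 21 were called higher in macrophages, none higher in P4, and all 23 had a difference below 0, with a median of -72.6 points. Csf1r, the receptor that sustains macrophages, had 0.555 FPKM in P4 and 621 and 638 CPM in macrophages, at percentiles 19.0, 98.8 and 99.2. Mrc1, the mannose receptor CD206, had 0.298 FPKM against 627 and 772 CPM, a difference of -83.2 points. Cd163, a scavenger receptor for haemoglobin, differed by -81.2 points, Cd33 by -83.7 and Ptprc, the pan-leukocyte antigen CD45, by -80.1. Lyz2, lysozyme, was near the top of both macrophage libraries with 7922 and 7433 CPM, yet stood at percentile 65.2 in P4 with 12.4 FPKM. The 23 genes summed to 36.8 FPKM in P4, with Trem2 alone listed at 0. Mertk and Trem2 were not called. Mertk, a receptor for apoptotic cells, had 0.116 and 38.4 CPM in the macrophage libraries, on either side of its P4 percentile.

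Genes of tissue-resident stromal macrophages were called higher in the macrophage libraries for 15 of 18 joined members, with a median of -56.2 points. The other 3 were not called, and 2 of them differed toward P4, by up to 33.5 points. Selenop, joined through its older symbol Sepp1, was not called either. It had 158 FPKM in P4, at percentile 97.8, and 2018 and 3005 CPM in macrophages. F13a1, coagulation factor XIII A, had 0.658 FPKM in P4 and 210 and 517 CPM in macrophages. The lectins Clec10a, Cd209a, Mgl2 and Cd209f differed by -77.0, -77.5, -72.9 and -68.4 points, and Stab1, a scavenger receptor, by -76.8. Lyve1, the hyaluronan receptor, differed by -51.9 points. Among myeloid transcription factors 10 of 19 were called higher in macrophages, with a median of -31.2 points. The other 9 were called in neither direction, and 3 of them differed toward P4, by up to 27.6 points. Ikzf1, Irf8, Irf4 and Irf5, regulators of haematopoietic and interferon-linked programmes, differed by -70.1, -67.3, -61.6 and -60.5 points. Zeb2 reached 1137 and 954 CPM and differed by -56.6 points. Spi1, which encodes PU.1, was joined through its older symbol Sfpi1 and had 0.0265 FPKM in P4 against 2.56 and 49.1 CPM, a difference of -51.0 points.

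Innate sensing, complement and antigen presentation genes followed the same direction by their medians. Of 21 pattern recognition and Fc receptor genes, 16 were called higher in macrophages, with a median of -51.4 points. Tlr9, a sensor of DNA, differed by -79.8 points. Tlr8, Tlr13 and Tlr7, sensors of RNA, differed by -71.1, -70.6 and -68.7 points. Fcgr3 and Fcer1g, parts of activating Fc receptors, differed by -73.7 and -68.3. Of 18 complement genes 10 were called, with a median of -58.3 points, among them C1qb, C3ar1 and C5ar1, at -78.5, -77.0 and -76.8 points. The other 8 were not called, and 3 of them differed toward P4, by up to 18.2 points. C3, called in neither direction, stood at percentile 97.8 in P4 and at 93.8 and 99.1 in macrophages. MHC class II genes were called for 11 of 13, with a median of -61.9 points. Ciita, the master activator of the class, had 0.125 FPKM in P4 and 224 and 267 CPM in macrophages. H2-Aa and Cd74 were not called by rank, but both were called higher in macrophages by log2 ratio. Cd74, the invariant chain, had 5061 and 5420 CPM in macrophages, but 35.8 FPKM placed it at percentile 86.4 in P4. Of the lysosomal genes 5 of 22 were called higher in macrophages, beside 7.36% of all joined genes, with a median of -9.16 points. Their median percentile in P4 was 81.0, a rank from which no call toward macrophages is possible. Man2b1, a lysosomal mannosidase, was the largest of these at -56.1 points.

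**Figure D3:**
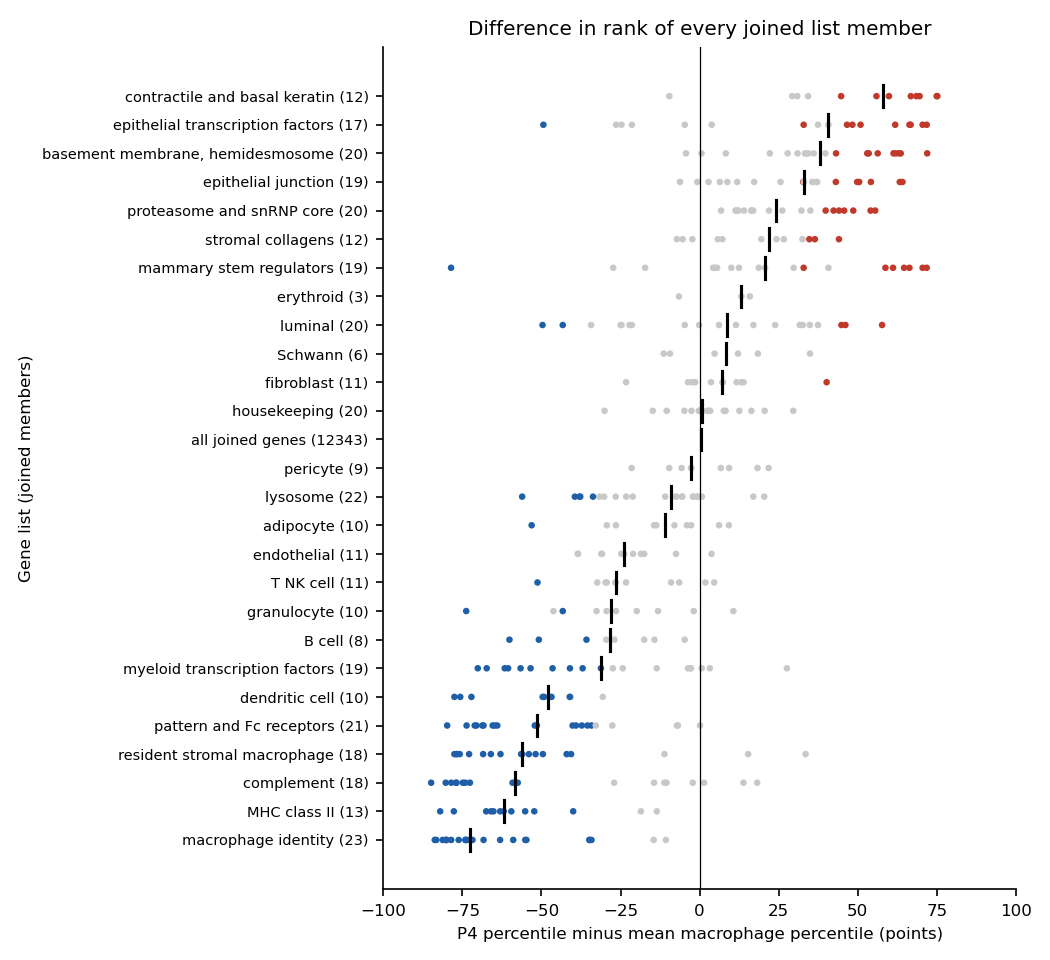
Difference in rank, P4 percentile minus the mean macrophage percentile, for every joined member of each gene list (points, red where called higher in P4, blue where called higher in macrophages, grey where not called) with the list median (black bar). Medians run from 57.9 points for contractile and basal keratin genes to -72.6 points for macrophage identity genes. Of the control lists, the 20 housekeeping genes centre at 0.851 and the 20 proteasome and small nuclear ribonucleoprotein genes at 24.0.

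Markers of other cell types were looked at in both sorts. Dendritic cell genes were called higher in macrophages for 7 of 10, with a median of -48.0 points. Flt3, a receptor of dendritic cell development, had 168 and 69.6 CPM in macrophages, Ccr7, the lymph node homing receptor, 624 and 118 CPM, and Zbtb46, a factor of classical dendritic cells, 275 and 72.6 CPM. Zbtb46 was not called per exon length, at -39.2 points, or by log2 ratio. The 10 genes summed to 1433 and 631 CPM. Clec9a, a defining receptor of cross-presenting dendritic cells, was at 0 in library 1 and at 22.5 CPM in library 2. B cell genes summed to 180.5 and 65.0 CPM, with 3 of 8 called. In the Cxcl12 knockout glands none of the 8 was called, while 6 were called against the LysM-Cre control macrophages. Pax5, the B lineage factor, had 95.6 and 12.7 CPM and was not called per exon length, at -47.4 points. Both sums were larger in library 1, but the median percentile of the dendritic genes was 71.4 in library 1 and 74.2 in library 2, and Dpp4 and Clec9a had more CPM in library 2. Endothelial genes summed to 62.9 CPM in library 1 and 306 in library 2, and none of 11 was called with both libraries. Without library 1, 7 of the 11 were called higher in macrophages, a rule by which 10.3% of all joined genes were called. Kdr, the VEGF receptor of endothelium, was at 0 in library 1 and at 53.02 CPM in library 2. Fibroblast genes summed to 468 FPKM in P4 and to 502 and 898 CPM in macrophages. Of these, 1 of 11 was called, Clec3b, higher in P4, beside 6.06% of all joined genes. Clec3b was not called per exon length (29.7 points), against the LysM-Cre control macrophages or by log2 ratio. Stromal collagen and elastin genes gave 3 calls of 12 toward P4, beside the same 6.06%. The largest of them, Col14a1, had 143 FPKM and was not called against the LysM-Cre control macrophages, at 38.01 points. T and NK cell, B cell and endothelial genes summed to 4.61, 0.808 and 10.9 FPKM in P4. Pericyte, Schwann cell and stromal collagen and elastin genes summed to more in P4, at 36.0, 144 and 1080 FPKM. In macrophage libraries 1 and 2, T and NK cell genes summed to 168.6 and 111.3 CPM. Granulocyte genes summed to 237.6 and 157.4 CPM in the same libraries. The part of these cells in any difference was not tested.

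Promoters were read where genes of a group moved together. RefSeq promoters on GRCm38.p6, from 250 bases before to 50 after a gene's start, were matched by symbol for 9818 of the 12343 genes. The 8 letters GAGGAAGT, a core bound by ETS factors such as PU.1, were searched on both strands. They occurred for 80 of 700 genes called higher in macrophages (11.4%), for 14 of 574 called higher in P4 (2.44%) and for 3.83% of all joined genes with a promoter. Over all 27025 genes of the promoter table the share was 3.69%. The shorter GAGGAA, which GAGGAAGT contains, occurred for 44.1%, 30.3% and 31.4% in the same order, and for 31.3% of the whole table. TGANTCA, the AP-1 core, occurred for 12.0%, 8.71% and 6.83%, against 8.97% of the whole table. The CArG box of smooth muscle genes occurred for 1.57%, 2.61% and 1.63% (1.81% of the whole table), and the p53-family half-site for 9.86%, 9.23% and 8.33% (9.55%). These 5 motifs were all that were searched, the shares are a description, and a match is not a site. The stretches below are 60 bases each, all before the start and read 5′ to 3′ on the gene's strand. The first group comes from 4 macrophage genes with GAGGAAGT on either strand, in capitals.
C1qc, a chain of complement C1q, GRCm38.p6 chr4:136893076-136893135, minus strand: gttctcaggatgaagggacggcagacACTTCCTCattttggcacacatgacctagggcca
Fcgr4, an activating Fc receptor, chr1:171018866-171018925, plus strand: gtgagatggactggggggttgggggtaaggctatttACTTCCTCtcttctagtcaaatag
Tlr1, a sensor of bacterial lipopeptides, chr5:64933559-64933618, minus strand: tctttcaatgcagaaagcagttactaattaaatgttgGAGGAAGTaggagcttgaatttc
Pf4, the chemokine CXCL4, chr5:90772375-90772434, plus strand: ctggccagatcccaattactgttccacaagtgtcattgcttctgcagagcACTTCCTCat

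The motif begins 195 bases before the start in C1qc and 24, 23 and 10 bases before it in Fcgr4, Tlr1 and Pf4. Their rank differences were -74.1, -39.1, -65.4 and -63.0 points. On the P4 side, a TGANTCA match in Cald1, the actin-binding caldesmon, and a CArG box in Schip1, one of the 10 genes with the largest gap toward P4, are shown in capitals. Cald1 differed by 44.7 points and Schip1 by 74.8. Schip1 belongs to none of the gene lists. Among called list members, a CArG box was matched only in Mpeg1, a gene called higher in macrophages, and in no contractile gene. TGANTCA was matched in Cald1, Dll1 and Itga3 on the P4 side and in more list members on the macrophage side.
Cald1, GRCm38.p6 chr6:34709220-34709279, plus strand: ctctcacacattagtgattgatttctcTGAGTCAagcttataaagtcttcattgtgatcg
Schip1, chr3:68468091-68468150, plus strand: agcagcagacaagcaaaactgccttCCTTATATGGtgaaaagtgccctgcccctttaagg

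Ligand and receptor partners were compared over 154 listed pairs, of which 129 had both genes joined. Only 3 pairs were called in opposite directions across the populations. In 2 the ligand was called higher in P4 and the receptor higher in macrophages, and in 1 the reverse held. A further 5 pairs had both genes called higher in P4, 7 had both higher in macrophages, and 53 had neither called. Of 109 distinct ligands, 18 were called higher in P4 and 15 higher in macrophages. Of 95 distinct receptors, 10 were called higher in P4 and 29 higher in macrophages. By the same rule 6.06% of all joined genes were called higher in P4 and 7.36% higher in macrophages. With older symbols resolved, Angptl2 and Pirb joined the pairs from P4 to macrophage, at 33.1 and -81.3 points, although Angptl2 was not called by log2 ratio. The 154 pairs were chosen by hand and overlap in their genes, so they are not independent of each other.

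**Figure D4:**
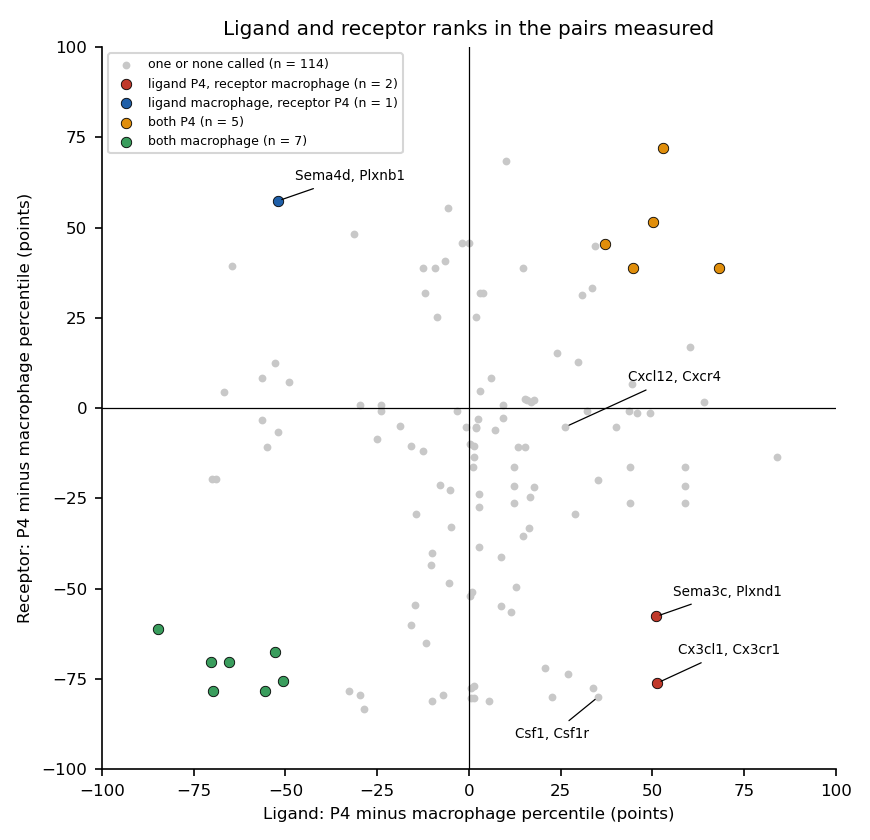
Each of 129 ligand and receptor pairs, placed by the rank difference of its ligand (horizontal axis) and of its receptor (vertical axis), as P4 percentile minus mean macrophage percentile in points. The lower right holds Cx3cl1 with Cx3cr1 and Sema3c with Plxnd1, the upper left Sema4d with Plxnb1, and Cxcl12 with Cxcr4 lies among the pairs that were not called.

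The pair after which the study is named was not called by rank. Cxcl12 had 270 FPKM in P4, at percentile 99.0, and 11.7 and 149 CPM in macrophages, at percentiles 53.6 and 91.9. The macrophage libraries thus disagreed with each other, and P4 exceeded the nearer one by 7.06 points. With library 2 at percentile 91.9, no call toward P4 was possible. Without library 2 Cxcl12 was called higher in P4, with a difference of 45.4 points, and without library 1 the difference was 7.06 points. By log2 ratio with a pseudocount of 1, Cxcl12 was called higher in P4 with both macrophage libraries kept. Endothelial genes also ranked higher in library 2, at a median percentile of 57.7 against 40.1, while fibroblast genes had larger summed CPM there but near-equal medians, 47.8 and 47.1. The part of such cells in the Cxcl12 values was not tested. Cxcr4, the receptor, had 67.8 FPKM in P4 and 564 and 337 CPM in macrophages, at percentiles 92.9, 98.6 and 97.7, a difference of -5.23 points. All 3 libraries thus ranked Cxcr4 high. At its P4 percentile no call toward macrophages was possible, and by log2 ratio Cxcr4 was called in neither direction. Ackr3, the scavenging receptor of CXCL12, was joined through its older symbol Cxcr7. It had 108 FPKM in P4 and 1.51 and 10.9 CPM in macrophages, and was called higher in P4 by 52.2 points.

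The ligands of the CSF1 receptor had a clear receptor side and an unclear ligand side. Csf1r was called higher in macrophages (-80.0 points). Csf1, the main macrophage growth factor, had 141 FPKM in P4 and 13.1 and 39.2 CPM in macrophages. Its gap of 27.6 points fell short of the call, which it passed without library 2, at 42.9 points. By log2 ratio with a pseudocount of 1, Csf1 was called higher in P4 with both macrophage libraries kept. Il34, the second ligand, had 4.05 FPKM in P4 and 0.116 and 0.779 CPM in macrophages, a gap of 13.2 points. Il34 was called higher in P4 without library 1, at 32.0 points.

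Cx3cl1 and Cx3cr1 were the chemokine pair called from P4 to macrophage. Cx3cl1, a membrane-bound chemokine, had 69.5 FPKM in P4 and 9.77 and 6.15 CPM in macrophages, a difference of 51.3 points. Its receptor Cx3cr1, a marker of tissue macrophages, had 0.112 FPKM in P4 and 132 and 128 CPM in macrophages, a difference of -76.2 points. Against the LysM-Cre control macrophages, Cx3cl1 differed by 29.6 points and was not called. In the semaphorin pair, Sema3c, a secreted guidance cue, had 57.4 FPKM in P4 and 2.09 and 7.76 CPM in macrophages, a difference of 51.0 points. Plxnd1, its plexin receptor, had 3.26 FPKM and 211 and 316 CPM, a difference of -57.7 points. Both genes of the semaphorin pair were called per exon length, without either macrophage library, with LysM-Cre macrophages, as log2 ratios with a pseudocount of 1 and with a filter on low values. In the opposite direction, Sema4d had 4.29 FPKM in P4 and 248 and 187 CPM in macrophages, a difference of -52.1 points. Its receptor Plxnb1 had 20.9 FPKM in P4 and 0 and 4.78 CPM in macrophages, a difference of 57.4 points.

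Pairs with both partners called higher in P4 included Tgfa with Egfr, Areg with Egfr, Wnt6 with Fzd1 and Efna1 with Epha2. Tgfa, a ligand of the EGF receptor, had 63.2 FPKM in P4 and 0.465 and 0.779 CPM in macrophages, a difference of 68.2 points. Egfr itself had 47.3 FPKM in P4 and 1.40 and 22.5 CPM in macrophages, a difference of 38.9 points. Against the LysM-Cre control macrophages Egfr, Epha2, Areg and Wnt6 were not called, at 30.1, 40.2, 8.89 and 37.8 points, and Wnt6 and Areg were also not called per exon length, at 33.0 points each, or by log2 ratio. In the Cxcl12 knockout glands both partners were called for Efna1 with Epha2 but not for the Egfr pairs or Wnt6 with Fzd1. P4 ligands whose receptor was called in neither direction made up 14 pairs. Among them were Dll1 and Jag2 with the Notch receptors: Jag2 differed by 43.9 points, while Notch1 and Notch2 differed by -16.4 and -26.2 points. Pdgfa and Pdgfc differed by 45.8 and 49.4 points, Tgfb2 and Tgfb3 by 32.1 and 43.6, Fgf1 by 63.9 and Wnt5a by 44.5. Of these, Pdgfa, Pdgfc and Tgfb2 were not called against the LysM-Cre control macrophages, at 28.97, 41.5 and 36.4 points, nor Dll1, and Tgfb3 was not called per exon length, at 39.6 points. By log2 ratio Pdgfa, Tgfb2 and Tgfb3 were not called. Among receptors, Lgr4 had 81.4 FPKM in P4 against 0.116 and 3.81 CPM, a difference of 68.4 points. Tnfrsf12a, the receptor of TWEAK, differed by 55.5 points, and by 50.5 without a call against the LysM-Cre control macrophages. Bmpr1a differed by 48.2 points and Fgfr2 by 45.8.

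Pairs with both partners called higher in macrophages included Ccl3 with Ccr1, Ccl9 with Ccr1, Flt3l with Flt3, Tnf with Tnfrsf1b and Siglec1 with Spn. In the knockout glands Ccl3 differed by -24.5 points and was not called, and by log2 ratio Flt3l was not called. Ccl9 had 647 and 359 CPM in macrophages and 2.39 FPKM in P4, and Ccr1 had 69.9 and 105 CPM against 0.0808 FPKM. Ccr2, the monocyte chemokine receptor, differed by -81.0 points, but its ligand Ccl2 was abundant in all 3 libraries, with 63.5 FPKM in P4 and 77.2 and 183 CPM in macrophages. In 28 pairs the receptor was called higher in macrophages and the ligand in neither direction. Cytokine ligands of macrophages with uncalled receptors included Il1b, with 536 and 508 CPM against 1.68 FPKM in P4, Il1a, at -68.9 points, and Osm, at -64.6. Spp1 (osteopontin), Igf1 and Cd274 (PD-L1) differed by -56.2, -49.0 and -66.8 points. Spp1 differed by -15.0 points against the LysM-Cre control macrophages and was not called there or in the knockout glands, and Igf1 was not called per exon length, at -39.6 points, or by log2 ratio.

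The genes with the largest gaps included epithelial and leukocyte genes. Clca2, a membrane protein of stratified and basal epithelium, had 320 FPKM in P4 and 0 CPM in both macrophage libraries, the largest gap toward P4 at 87.2 points. Fosl1, an AP-1 subunit, had 156 FPKM in P4 and differed by 80.4 points, and by 59.3 without a call against the LysM-Cre control macrophages. Rps27, a ribosomal protein, and Mif, a cytokine, had 115 and 68.2 FPKM in P4, were at 0 in macrophage library 1 and reached 0.261 and 0.204 CPM in library 2. Rps27 had 48.2 CPM in LysM-Cre control library 1 and was not called against those libraries, at 51.1 points beside 87.0 in the K8-Cre controls. Toward macrophages, Slc15a3, a lysosomal peptide transporter, differed by -88.7 points, Wdfy4, needed for cross-presentation, by -85.4, Itgax (CD11c) by -84.9, Siglec1 (CD169) by -84.7 and Slamf7 by -84.5. Gabarap, an autophagy adaptor, gave the largest gap of all, with 343 and 508 CPM in macrophages and a listed 0 in P4.

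The Cxcl12 knockout glands of the same line, K8Cre+ with Cxcl12 fl/fl and thus with the gene deleted in luminal cells, gave the same comparison in 3 other libraries. There, 899 genes were called higher in P4 (7.28%) and 1028 higher in macrophages (8.33%). Of the 748 control calls toward P4, 480 were called there in the same direction, which is 64.2% of the control and 53.4% of the knockout calls. Of the 908 toward macrophages, 674 were called there, 74.2% and 65.6%. The difference had the same sign for 735 of the 748 and 887 of the 908. Contractile and keratin genes again gave 8 calls of 12, with a median of 61.1 points, and macrophage identity genes 18 of 23, with a median of -62.9 points. Krt5 and Lgr5 differed by 85.8 and 81.5 points there. Cx3cl1 with Cx3cr1 and Sema3c with Plxnd1 were among 6 pairs called from P4 to macrophage in the knockout, while none was called in the opposite direction. Plxnb1 differed by 36.8 points there and was not called. Il34 was called higher in P4 in the knockout, at 35.8 points, and its pair with Csf1r was among the 6. Gabarap differed by -12.5 points, since the knockout P4 library listed 33.5 FPKM.

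**Figure D5:**
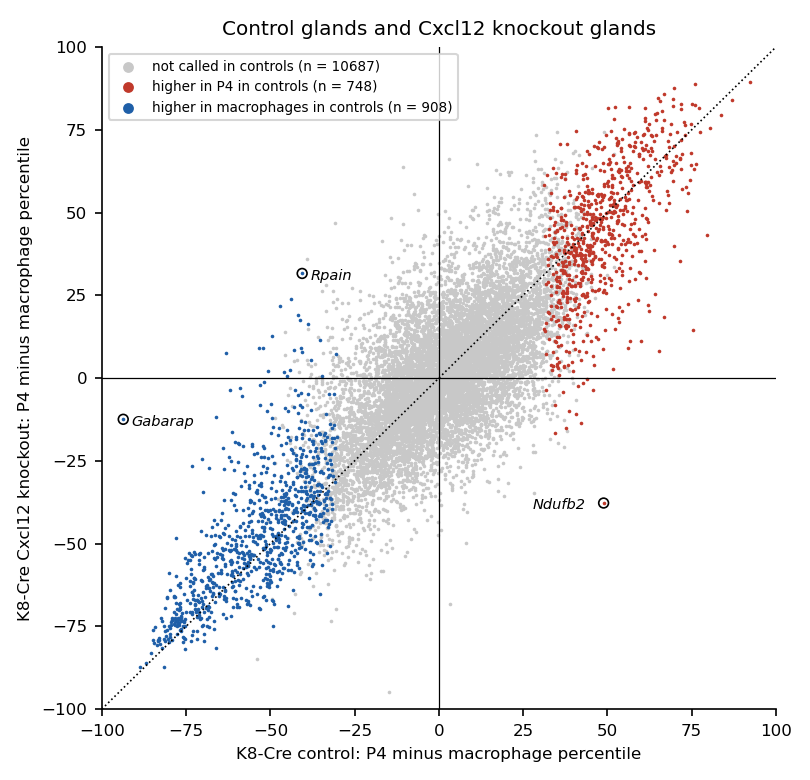
Rank difference between P4 and macrophages for each gene in the K8-Cre controls (horizontal axis) and in the K8-Cre Cxcl12 knockouts (vertical axis), in percentile points, with red and blue for the control calls. Most control calls keep their sign in the knockout, while the circled genes Ndufb2 and Rpain lie in opposite quadrants and Gabarap lies near 0 in the knockout.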

How the data were processed

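RNA of sorted P4 cells and macrophages was sequenced. Per the submitters' processing notes, STAR 2.7.8a and Partek were used with the build hg38, although the deposited symbols are mouse; the counting and its strand setting are not given in the sources used here. The deposited P4 values are FPKM, laid out as Cufflinks writes them, and the deposited macrophage values are log2 values, read from the values as log2(CPM + 0.0001), since the authors state no unit. Macrophage values were turned back to CPM, and depth was estimated from the CPM of 1 read. Of P4 entries, 429 had no gene name and 27 repeated a symbol, of which the highest was kept.

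Percentile ranks were computed in Python 3.11.15 with SciPy 1.17.1, with ties at their mean rank. The ranking step was tested on simulated data. CPM is not per length, so macrophage CPM divided by GENCODE M21 exon length was an alternative. Others were calls at 20 and 50 points, every entry ranked, zeros at the lowest rank, a filter at 1 FPKM or CPM, 8-fold log2 ratios with pseudocounts of 1 and 0.1, each macrophage library left out, LysM-Cre control macrophages, and older symbols resolved through RefSeq synonyms, which was added after seeing the data. That last step joined 1295 further genes.

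The members, the 27 gene lists and the pairs were chosen with earlier results of these data known. Named genes are the sort and CXCL12 axis genes, up to 6 called members of each list with the largest difference and any called against its median, the 10 largest gaps in each direction, pairs called across cells, and Cxcl12, Cxcr4, Csf1, Il34 and Csf1r. Other list and pair members were named after their values were seen. Some list and pair members are counted but not reported by name here.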

Additional observations from a re-analysis of the deposited data

Results flagged for a closer look

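Ndufb2, a subunit of mitochondrial complex I, and Rpain, a partner of replication protein A, were called in opposite directions in the control and the knockout comparison. Ndufb2 differed by 48.9 points in the K8-Cre controls and by -37.8 points in the K8-Cre Cxcl12 knockouts. It had 14.7 FPKM in the control P4 library and was listed at 0 in the knockout P4 library. Rpain differed by -40.6 points in the controls and by 31.6 points in the knockouts. It was listed at 0 in the control P4 library and at 14.6 FPKM in the knockout P4 library. The difference between the comparisons was not tested, as each has 1 P4 library.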

How the results depend on the processing

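Counts of genes called higher in P4 and higher in macrophages (748 and 908) were 1449 and 1436 at 20 points, 176 and 393 at 50 points, and 1357 and 359 with every entry ranked. Leaving out each macrophage library gave 1198 to 1598 and 1273 to 1579. Pairs from P4 to macrophage (2) numbered 8 at 20 points, 0 at 50 points, 6 with log2 ratios at either pseudocount, and 4 to 5 without a macrophage library. Pairs from macrophage to P4 (1) numbered 2 at 20 points, 0 at 50 points, 2 per exon length, 0 with every entry ranked, 2 with log2 ratios at either pseudocount, 2 with LysM-Cre control macrophages, and 1 to 3 without a macrophage library. With every entry ranked, the medians of contractile and keratin genes and of macrophage identity genes were 44.8 and -41.1 points. The macrophage median was also -73.9 per exon length, -76.6 with the filter and -70.6 with LysM-Cre control macrophages. No list median past 30 points and no called gene among those named by the rule changed sign in any alternative run. Per exon length kept 573 of the 748 and 759 of the 908, and LysM-Cre control macrophages kept 476 and 685. The cause of these moves was not tested, beyond fewer libraries or a looser or stricter call. No paired analysis was possible because the single P4 library carries no replicate number. Depth limits low macrophage values: 3 reads equal 0.349 CPM in library 1 and 0.0806 CPM in library 2.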

Other observations

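Ribosomal protein genes, a group chosen after their values were seen, ranked higher in P4. Of 80 such genes, 24 were called higher in P4, beside 6.06% of all joined genes, and none higher in macrophages. Their median was 31.5 points. With macrophage values per exon length, 13 were called, beside 6.01% of all genes by that rule, with a median of 18.0 points. In the Cxcl12 knockout line 31 were called, beside 7.28% of all joined genes. The macrophage table lists 94 named ribosomal protein pseudogenes, which summed to 5687 and 3873 CPM in macrophage libraries 1 and 2, beside 8854 and 6453 CPM of the genes themselves. No pseudogene named after Rps27 or Mif was listed, and copies under other forms of name were not searched. Whether reads were split between such copies was not tested. Small nuclear ribonucleoprotein and proteasome genes, listed as a control, gave 7 P4 calls of 20, beside 6.06% of all joined genes. All 20 differed toward P4 by the main rule, with a median of 24.0 points. That is above the medians of the mammary stem cell list (20.7) and the stromal collagen list (21.9). Per exon length the control median was 19.3 points, below those of these lists, 30.1 and 25.4. By that rule some of the 20 differed the other way, among them Psmb5 and Psmb4, at -6.08 and -5.94 points. In the knockout glands Snrpa and Snrpd3 differed by -3.48 and -0.290 points. In macrophage library 1, 4 of the 20 were at 0, and 2 were called per exon length.

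Values listed at 0 occurred on both sides. Of the 908 genes called higher in macrophages, 111 were listed at 0 in the control P4 library, beside 1024 of all 12343 joined genes (8.30%). Of these 111, 10 stood above the 50th percentile in the knockout P4 library, Gabarap and Rpain among them. Of the 748 called higher in P4, 261 were at 0 in macrophage library 1 and 13 in both. Of all 12343 joined genes, 2979 (24.1%) were at 0 in macrophage library 1. Wfdc18, a whey acidic protein family gene of luminal cells joined through its older symbol Expi, had 11.8 FPKM in the control and 0.143 FPKM in the knockout P4 library.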
